A study of Mus musculus with 77 samples.

Results

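The mouse histone genes covered here are the 44 genes, of 19938 measured as single genes on the arrays, whose symbols belong to the H1, H2A, H2B, H3 and H4 families. Members were taken by symbol, and the family was chosen with earlier results of these data known. Pseudogenes were left out (1 gene), as were 47 probe sets that the array's annotation lists with several genes, because near-identical histone copies share sequence. The 44 comprised 27 replicative genes (4 H1, 4 H2A, 9 H2B, 3 H3 and 7 H4), 6 variants used outside S phase (H1f10, H2aj, H2ax, H2az1, H2az2 and H3f3a) and 11 germ-line histones (H1f6, H1f7, H1f8, H2ab1, H2ac1, H2al2a, H2al3, H2ap, H2bc1, H2bfm and H2bl1). Of these, 24 lie on chromosome 13, 5 on chromosome 3, and 4 each on chromosomes 6 and X.

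Their RNA was measured on 77 arrays of testis from neonatal RiboTag mice, in which Cre switches on an epitope-tagged ribosomal protein so that the ribosomes of 1 cell type can be pulled down with their RNA. Stra8-cre mice (FVB/N) and Ngn3-cre mice (C57BL/6) carry the tag in germ cells, and Amh-cre mice (FVB/N) carry it in Sertoli cells, the somatic nurse cells of the tubule. Total RNA holds every cell of the testis, and IP RNA came down with the tagged polysomes. All animals, time 0 included, had received BDAD, an inhibitor of retinoic acid synthesis, for 9 days. They were killed then (time 0) or after a retinoic acid (RA) injection. The Stra8 line was sampled at 8 labelled times (0, 4h, 12h, 24h, then 48h, and 4d, 6d, 8d; 16 IP and 23 total arrays). The Amh line had the same times (16 IP and 14 total arrays, total RNA of 4h not analysed here), and the Ngn3 line had 0 and 4h alone (4 IP and 4 total arrays). Most groups held 2 arrays (31 of 35), 1 held 3 and 3 held 4. No group was left uninjected or given vehicle for the same time, so RA, the injection, age and the end of BDAD cannot be told apart. In Ngn3 mice strain and driver cannot be told apart either.

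Histones H2A, H2B, H3 and H4 form the core particle around which DNA is wrapped, and H1 linker histones bind the DNA between particles. Replicative histone genes lie in clusters of many similar copies, are transcribed mainly in S phase, and make mRNAs that end in a stem-loop instead of a poly(A) tail. Variants are made throughout the cycle, and male germ cells add their own H1, H2A and H2B forms before and during meiosis and again when histones give way to protamines in spermatids.

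Several features of the arrays touch the results. In the Amh IP arrays labelled 4h, Cyp26a1, an RA-induced enzyme that degrades RA, was at log2 6.66 and 6.79, near the 6.53 and 6.15 of time 0. It reached 8.18 and 7.21 at 12h, and 8.28 and 8.18 under the label 4d. Rarb, an RA receptor gene that RA induces, was at 7.18 and 7.16 (labelled 4h), 7.07 and 7.02 (time 0) and 8.58 and 8.56 (labelled 4d). Results over several Amh times were therefore also computed with the Amh labels 4h and 4d left out, and that value is given wherever this ended a call of a gene named here. A change at the label 4h or 4d alone has no such second value. In Stra8 IP RNA the mean of 12 Sertoli cell markers differed between the arrays of time 0 (9.50 and 10.10), 24h (9.24 and 10.20) and 4d (10.80 and 9.84), against 8.64 to 9.04 at 6d and 8d. Germ cell markers were higher in Stra8 than in Amh IP RNA for 12 of 12 genes and Sertoli cell markers lower for 12 of 12. Within groups, the correlation of arrays across genes was 0.958 to 0.999. Signals bottomed out at 25.1 to 26.3 intensity units, so differences between dim probe sets are compressed. The log2 level of a gene is compared here only with the same gene in other samples.

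Promoter sequences are shown for 6 genes that carry the results below: the testis-specific pair H2ac1 and H2bc1, the testis-specific linker gene H1f6, the replicative genes H2bc3 and H4c4, and the linker variant H1f10. Each runs 5′ to 3′ on the gene's own strand from 250 bases before to 50 after the start site (RefSeq, GRCm38.p6), and 39 of the 44 genes had such a window. On the plus strand the windows are chr13:23934187-23934486 for H2ac1, chr13:23695561-23695860 for H1f6, chr13:23746484-23746783 for H2bc3, chr13:23581318-23581617 for H4c4. On the minus strand they are chr13:23934107-23934406 for H2bc1 and chr6:87981433-87981732 for H1f10. Capitals mark matches on either strand to 4 motifs known from histone promoters. They are the CCAAT box, searched by the letters of its name, and the TATA box, searched as TATAAA. The octamer, known from H2A and H2B promoters, was searched as ATGCAAAT. The H1 box, known from linker histone promoters, was searched as AAACACA. Each was counted on its own.
H2ac1: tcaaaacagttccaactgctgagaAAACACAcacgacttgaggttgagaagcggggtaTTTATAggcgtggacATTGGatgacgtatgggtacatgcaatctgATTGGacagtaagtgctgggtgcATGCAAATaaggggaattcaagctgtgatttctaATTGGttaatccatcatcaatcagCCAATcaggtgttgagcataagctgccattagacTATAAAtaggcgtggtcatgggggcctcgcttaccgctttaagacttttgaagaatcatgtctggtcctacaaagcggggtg
H2bc1: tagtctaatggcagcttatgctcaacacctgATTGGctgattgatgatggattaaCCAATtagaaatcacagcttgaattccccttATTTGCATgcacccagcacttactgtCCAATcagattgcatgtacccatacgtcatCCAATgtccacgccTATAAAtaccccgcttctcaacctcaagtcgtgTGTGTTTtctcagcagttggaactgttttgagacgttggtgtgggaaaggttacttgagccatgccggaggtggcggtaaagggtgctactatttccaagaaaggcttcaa
H1f6: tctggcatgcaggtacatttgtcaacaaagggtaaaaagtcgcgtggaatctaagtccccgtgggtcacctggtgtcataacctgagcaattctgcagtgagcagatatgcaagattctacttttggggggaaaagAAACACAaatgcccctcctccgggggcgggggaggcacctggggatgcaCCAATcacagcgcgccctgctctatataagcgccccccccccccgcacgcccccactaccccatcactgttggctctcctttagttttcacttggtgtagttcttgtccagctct
H2bc3: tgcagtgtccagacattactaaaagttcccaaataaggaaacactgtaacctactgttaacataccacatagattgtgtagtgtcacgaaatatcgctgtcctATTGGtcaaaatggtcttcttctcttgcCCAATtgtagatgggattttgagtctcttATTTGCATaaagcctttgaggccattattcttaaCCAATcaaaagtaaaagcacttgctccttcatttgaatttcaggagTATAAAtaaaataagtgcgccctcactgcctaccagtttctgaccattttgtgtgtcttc
H4c4: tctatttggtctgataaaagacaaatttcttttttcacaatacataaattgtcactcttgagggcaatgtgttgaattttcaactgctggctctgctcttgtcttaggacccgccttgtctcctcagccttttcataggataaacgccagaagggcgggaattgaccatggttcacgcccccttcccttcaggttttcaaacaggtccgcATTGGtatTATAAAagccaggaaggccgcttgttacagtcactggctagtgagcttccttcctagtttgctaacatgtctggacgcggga
H1f10: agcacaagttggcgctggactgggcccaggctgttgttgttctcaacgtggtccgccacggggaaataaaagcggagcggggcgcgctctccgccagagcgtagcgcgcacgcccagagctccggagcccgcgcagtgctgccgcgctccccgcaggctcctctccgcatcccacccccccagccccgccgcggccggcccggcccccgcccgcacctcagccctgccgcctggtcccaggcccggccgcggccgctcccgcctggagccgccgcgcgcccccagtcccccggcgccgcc

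H2ac1 and H2bc1 are divergent neighbours. Their start sites lie 281 bases apart on opposite strands, and the 2 windows share the 220 bases from 23934187 to 23934406, so the matches in that stretch belong to both. The CCAAT box was matched in 31 of 39 histone windows (79.5%) against 37.9% of 27025 gene windows of the same length, and the TATA box in 17 (43.6%) against 14.2%. The octamer was matched in 9 (23.1%) against 1.75%, and the H1 box in 9 (23.1%) against 7.14%. The octamer was matched in 3 of 4 replicative H2A and 4 of 7 replicative H2B windows and in the H2ac1 and H2bc1 windows, and the H1 box in 3 of 4 replicative H1 windows. The CCAAT box was matched in 2 of 6 replicative H4 windows. These are matches of letters, with no measurement of binding.

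Between cell types, the histone genes called between germ cell and Sertoli cell IP RNA were the testis-specific H2A, H2B and linker genes H2ac1, H2bc1 and H1f6, a set of replicative genes and 1 linker variant. A gene was called when limma's Benjamini-Hochberg adjusted p over all genes was under 0.05 and the difference at least 2-fold, and each mean difference averages over the labelled times. Averaged over the 8 times, 11 of 44 genes were called higher in Stra8 IP than in Amh IP RNA (25%, against 7.54% of all genes) and 3 lower (6.82%, against 9.26% of all genes). The counts were also 11 and 3 with these Amh labels (4h, 4d) left out, where H2bc4 was at -3.08 against the -2.77 over all times. The median difference was 0.27 for the histone genes and -0.02 for all genes. In bulk RNA of this kind, fewer cells of a type and less RNA per cell cannot be told apart. In Stra8 mice, IP set against total RNA had 2 histone genes called higher (3.84% of all genes) and 2 lower (5.37% of all genes), shares of 4.55% each that lie near the background. In the Ngn3 line 0 were called higher (6.18% of all genes) and 5 lower (11.4%, against 6.75% of all genes), with 20 of 44 at an unadjusted limma p under 0.05 in either direction (45.5%, against 58.6% of all genes). In the Amh line 0 were called higher (1.1% of all genes) and 5 lower (11.4%, against 3.94% of all genes), with 34 of 44 at an unadjusted p under 0.05 (77.3%, against 75.6%). The median difference from total RNA was 0.14 in the Stra8 line (0.04 for all genes), -0.03 in the Ngn3 line (0.05) and -0.14 in the Amh line (0.12).

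**Figure D1:**
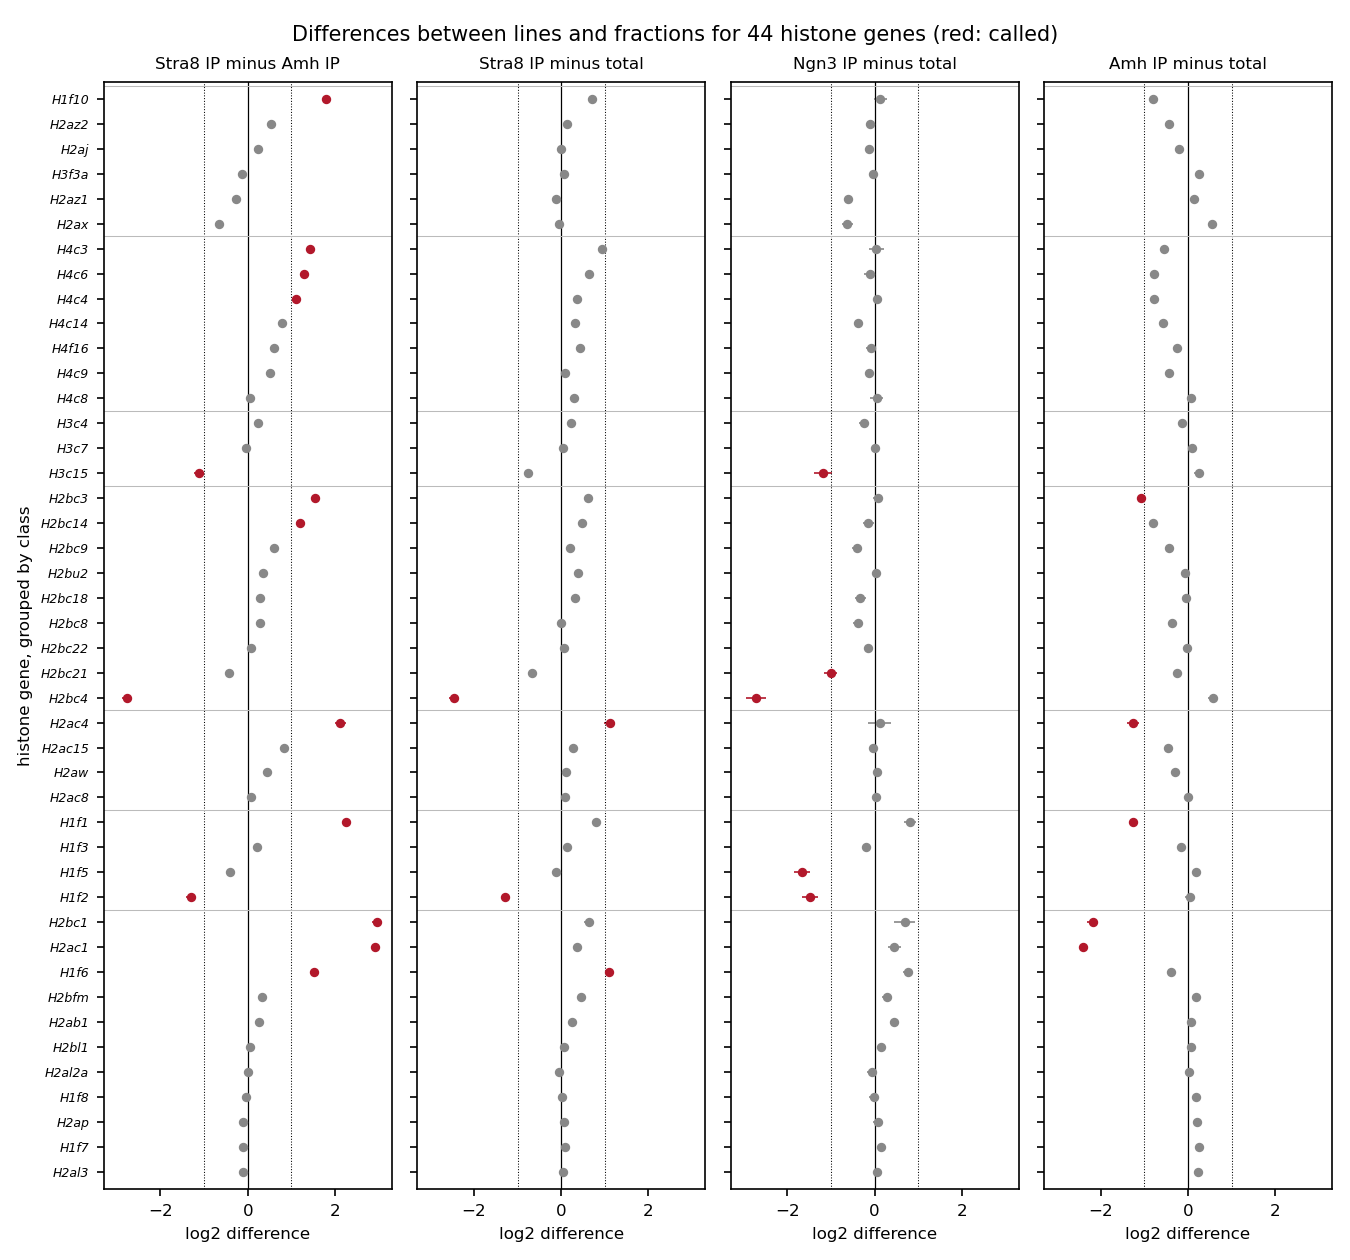
Log2 differences of the 44 histone genes, with the SE of the fit as bars, for Stra8 IP minus Amh IP and for IP minus total RNA in each line. Red points passed both the adjusted p and the 2-fold minimum (dotted lines at -1 and 1); H2bc1 and H2ac1 stand at 2.96 and 2.92 in the first panel and H2bc4 at -2.77.

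Total RNA of the 2 lines, which holds the same cell types, gave the background for these contrasts. Averaged over 7 times, limma called 0 of 44 histone genes between Stra8 and Amh total RNA (0.0301% of all genes were called in either direction). At an unadjusted p under 0.05 there were 15 (34.1%, against 34.2% of all genes), and the largest difference was 0.40.

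The testis-specific core histone genes H2ac1, which encodes TH2A, and H2bc1, which encodes TH2B, set the germ cell RNA apart. H2ac1 lay between 13.38 and 14.10 in the 16 Stra8 IP arrays (median 13.73) and between 9.72 and 13.07 in the 16 Amh IP arrays (median 10.43). The ranges did not overlap. The mean difference was 2.92 ± 0.07 (SE), or 7.56-fold (adjusted p = 3.35e-37). H2bc1 lay between 11.79 and 13.08 in Stra8 IP (median 12.42) and between 8.46 and 11.86 in Amh IP RNA (median 8.98). Its ranges overlapped by the highest Amh array only, and the mean difference was 2.96 ± 0.12, or 7.76-fold (adjusted p = 2.21e-28). Against total RNA both were lower in the Amh IP fraction, H2ac1 by -2.41 ± 0.08 and H2bc1 by -2.18 ± 0.13. In germ cell IP RNA neither reached a 2-fold difference from total RNA: H2ac1 differed by 0.37 ± 0.07 in the Stra8 line and 0.45 ± 0.14 in the Ngn3 line, and H2bc1 by 0.64 ± 0.11 and 0.69 ± 0.24.

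Over time the pair rose in whole testis, most at 6d. In Amh total RNA H2bc1 was at 10.75 and 10.52 at time 0, 13.30 and 13.21 at 6d and 13.06 and 12.77 at 8d. H2ac1 went from 12.50 and 12.44 to 14.11 and 14.06 at 6d and 13.97 and 13.90 at 8d. Neither time overlapped time 0. The largest changes were 2.62 ± 0.33 for H2bc1 (adjusted p = 1.35e-09) and 1.62 ± 0.20 for H2ac1 (adjusted p = 1.09e-09), both at 6d. Each adjusted p for a change in total RNA is that of limma's F test over all times. In Stra8 total RNA, H2bc1 lay between 10.64 and 11.44 in the 4 arrays of time 0 and at 12.88 and 12.81 at 6d (1.87 ± 0.29, adjusted p = 1.07e-06), and H2ac1 changed by 1.45 ± 0.18 at 6d (adjusted p = 2.35e-08). The 3 Stra8 total arrays labelled 4h disagreed, with H2bc1 at 10.48 in replicate 1 against 12.49 and 12.12. Cyp26a1 was at 7.43 in replicate 1 against 6.27 and 6.54, where time 0 had 6.13 to 6.54. Rarb was at 8.52 against 6.98 and 6.99, where time 0 had 7.04 to 7.32. Replicates 2 and 3 thus lacked the RA response of replicate 1 in these 2 genes. All 3 arrays entered the main fit under the label 4h.

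The pair was already high at time 0 in Stra8 IP RNA, and its changes there did not pass the test. H2ac1 went from 13.64 and 13.38 to 14.09 and 14.10 at 6d (0.58 ± 0.20, adjusted p = 0.052 for the course), and H2bc1 from 12.39 and 11.79 to 13.08 and 12.83 (0.86 ± 0.33, adjusted p = 0.224). In Amh IP RNA both rose. H2ac1 was at 9.84 and 9.75 at time 0, 10.11 and 9.97 under the label 4d, 13.07 and 12.69 at 6d, and 12.18 and 11.92 at 8d. H2bc1 was at 9.16 and 8.78, then 8.80 and 8.81, 11.86 and 11.50, and 11.07 and 10.70 at the same times. The rise at 6d was 3.09 ± 0.20 for H2ac1 (8.51-fold, adjusted p = 3.05e-19) and 2.71 ± 0.33 for H2bc1 (6.56-fold, adjusted p = 8.95e-12), and both values stand without the arrays labelled 4h and 4d. H2ac1 was also called at the label 4h (1.22 ± 0.20, arrays at 11.11 and 10.91). The change at 6d was smaller in Stra8 than in Amh IP RNA by -2.50 ± 0.29 for H2ac1 (adjusted p = 9.44e-12) and -1.85 ± 0.47 for H2bc1 (adjusted p = 2.79e-05). Each adjusted p for such a difference between lines in the change is that of limma's F test over all times.

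Germ cell markers were measured beside this pair in Amh IP RNA. The mean of the 12 germ cell markers was 8.54 at time 0, 7.98 in the arrays labelled 4d, 8.77 at 6d and 8.94 at 8d, against 10.4 to 10.6 in Amh total RNA. Over the Amh IP course 1 of the 12 was called higher (3.67% of all genes) and 3 lower (3.96% of all genes), or 1 and 0 without the arrays labelled 4h and 4d. The higher was Sycp3, which changed by 2.36 at 8d in Amh IP and by 2.22 at 8d in Amh total RNA. The 3 lower were Mael (-1.37), Slc25a31 (-1.09) and Dazl (-1.04). Without the arrays labelled 4h and 4d their largest changes were -0.91 (Mael at 48h), 0.72 (Slc25a31 at 8d) and 0.86 (Dazl at 6d). All 3 were under 2-fold, and the last 2 had changed sign. Even at 6d, IP minus total in the Amh line was -1.21 for H2ac1 and -1.57 for H2bc1, against -2.67 and -1.67 at time 0. The part of RNA from germ cells in these 2 values was not tested.

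**Figure D2:**
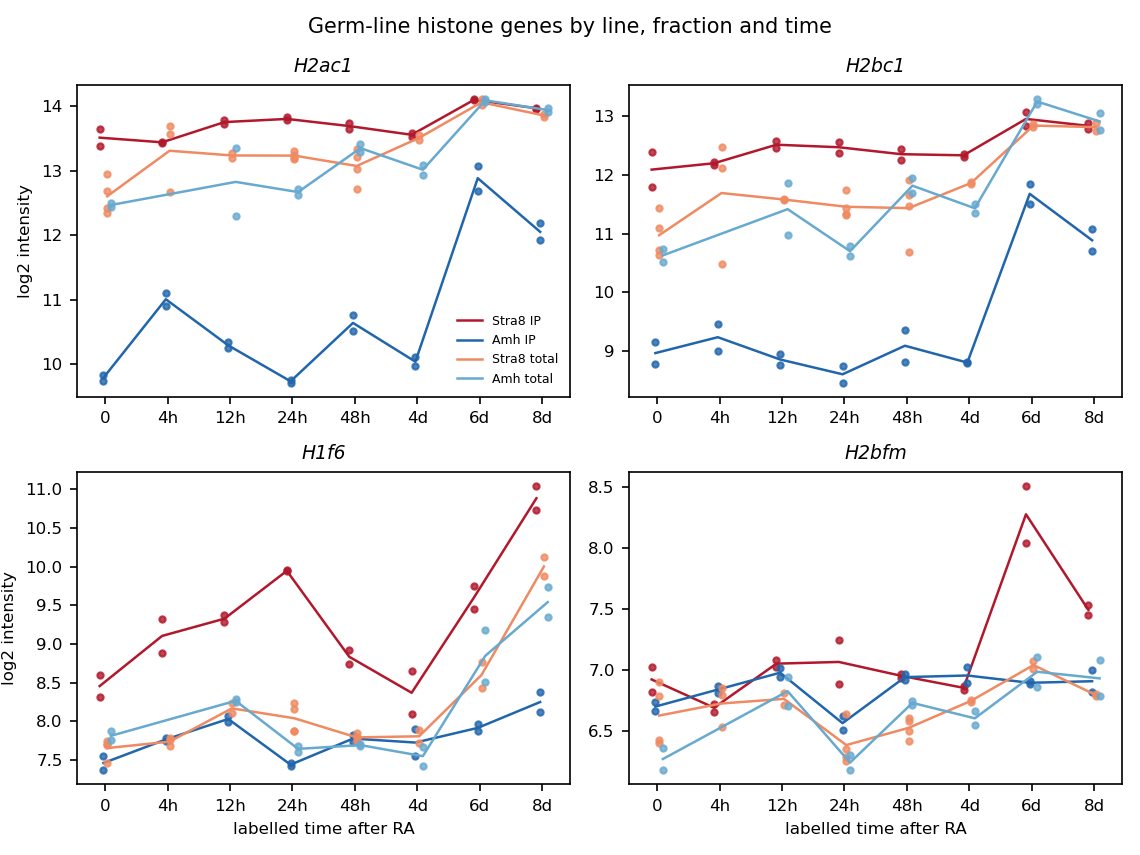
Log2 intensity of 4 germ-line histone genes by labelled time after RA, with 1 point per array and lines through group means, for IP and total RNA of the Stra8 and Amh lines. H2ac1 and H2bc1 rose at 6d in Amh IP and in both total fractions, H1f6 was highest at 8d in Stra8 IP RNA (11.04 and 10.72), and H2bfm peaked at 6d in Stra8 IP RNA (8.51 and 8.05).

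H1f6 encodes H1t, the testis-specific linker histone best known from pachytene spermatocytes. It was higher in Stra8 IP than total RNA by 1.09 ± 0.05 (2.13-fold, adjusted p = 7.92e-24) and than Amh IP RNA by 1.52 ± 0.06 (adjusted p = 4.44e-29). In the Ngn3 line IP exceeded total RNA by 0.77 ± 0.12, short of 2-fold. Stra8 IP RNA was high in H1f6 at 24h and again at 8d. Its arrays were at 8.60 and 8.31 at time 0, 9.95 and 9.94 at 24h, 8.65 and 8.09 at 4d, 9.75 and 9.45 at 6d and 11.04 and 10.72 at 8d. The arrays of every labelled time but 4d lay above those of time 0, and those of 4d overlapped time 0. The times not yet listed were at 9.323 and 8.885 (4h), 9.368 and 9.286 (12h) and 8.746 and 8.924 (48h). The change was 1.49 ± 0.17 at 24h (adjusted p = 1.75e-08), 1.15 ± 0.17 at 6d (0.997 without replicate 1 of 6d) and 2.43 ± 0.17 at 8d (5.37-fold, adjusted p = 5.44e-17). In Stra8 total RNA it rose by 2.34 ± 0.14 at 8d (arrays at 10.12 and 9.88, against 7.46 to 7.75 at time 0) and in Amh total RNA by 1.73 ± 0.17 (9.35 and 9.73, against 7.87 and 7.75). In Amh IP RNA the 8d arrays were at 8.12 and 8.38 against 7.55 and 7.37, a change of 0.79 ± 0.17 that missed the 2-fold minimum. The rise at 8d was larger in Stra8 than in Amh IP RNA by 1.64 ± 0.23 (adjusted p = 2.15e-10).

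H2bfm, an H2B family gene, was dim in most groups and peaked once in germ cell RNA. Stra8 IP arrays were at 7.03 and 6.82 at time 0, 8.51 and 8.05 at 6d and 7.54 and 7.46 at 8d, and the 16 Amh IP arrays lay between 6.51 and 7.02. The change at 6d was 1.35 ± 0.14 (2.56-fold, adjusted p = 2.15e-11), larger than in Amh IP RNA by 1.16 ± 0.19 (adjusted p = 1.49e-08). Without the first Stra8 IP array of 6d that difference was 0.93 and under 2-fold. Its course in total RNA reached 0.41 in the Stra8 and 0.72 in the Amh line, both under 2-fold.

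The other 7 germ-line genes were called in no comparison. H2al2a encodes a short H2A of condensing spermatids, H2ab1 encodes H2A.B, H1f7 a spermatid linker histone and H1f8 the oocyte linker histone. Between Stra8 and Amh IP RNA, H2ab1 differed by 0.26 ± 0.05, H2bl1 by 0.06 ± 0.05, H2al2a by 0.01 ± 0.06, H1f8 by -0.05 ± 0.05, H2ap by -0.10 ± 0.05, H1f7 by -0.10 ± 0.05 and H2al3 by -0.11 ± 0.04. Across all 77 arrays their values spanned 7.47 to 8.34 (H2ab1), 5.82 to 6.61 (H2bl1), 7.73 to 8.60 (H2al2a), 6.20 to 6.96 (H1f8), 6.26 to 7.05 (H2ap), 7.68 to 8.63 (H1f7) and 6.06 to 6.73 (H2al3). The Stra8 IP and Amh IP ranges overlapped for all 7. Their largest change in Stra8 IP RNA was -0.39 ± 0.16 (H2al2a at 4h), and in Amh IP RNA 0.35 ± 0.15 (H1f7 at 6d).

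H1f10, which encodes the replication-independent linker histone H1.X, was the variant that differed most. In Stra8 IP RNA it lay between 10.34 and 12.26 (median 10.79) and in Amh IP RNA between 8.61 and 9.94 (median 9.18), with no overlap, and the mean difference was 1.80 ± 0.07 (3.48-fold, adjusted p = 1.42e-27). Over time the lines diverged. Stra8 IP arrays went from 10.48 and 10.46 at time 0 to 11.35 and 11.38 at 4d and 12.04 and 12.26 at 8d (1.67 ± 0.21 at 8d, adjusted p = 6.03e-09). Amh IP arrays went from 9.94 and 9.85 to 8.61 and 8.66 at the label 4h (-1.26 ± 0.21) and 8.77 and 8.77 at 48h (-1.13 ± 0.21, adjusted p = 0.000181), and were at 8.84 and 9.11 at 8d. The change at 8d differed between the lines by 2.60 ± 0.30 (6.05-fold, adjusted p = 1.47e-08). In Stra8 total RNA H1f10 rose by 1.11 ± 0.18 at 8d (adjusted p = 1.73e-07), and in Amh total RNA its largest change was 0.87 ± 0.21, under 2-fold.

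H2ax encodes the H2A variant that is phosphorylated at DNA breaks and on the meiotic sex chromosomes, and its RNA crossed between the lines. In Amh IP RNA it was at 11.08 and 10.81 at time 0, 10.10 and 9.58 at 6d and 9.77 and 9.60 at 8d (-1.27 ± 0.18 at 8d, adjusted p = 1.22e-07). Stra8 IP arrays were at 9.44 and 9.49 at time 0, 9.10 and 9.04 at 48h, 10.04 and 9.90 at 4d and 10.13 and 10.21 at 8d, a change of 0.71 ± 0.18 at 8d that missed the 2-fold minimum. At time 0 every Amh array lay above every Stra8 array, and at 8d every Stra8 array lay above every Amh array. The change at 8d differed by 1.97 ± 0.25 (adjusted p = 1.09e-08), while the mean over all times differed by -0.67 ± 0.06.

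The remaining variants moved less. H2az1, which encodes the main H2A.Z, was called only for the difference in course: it changed by 0.53 in Stra8 and by -0.51 in Amh IP RNA at 6d, a difference of 1.04 ± 0.11 (adjusted p = 2.12e-11). Its arrays were at 11.75 and 11.82 at time 0 and 12.34 and 12.28 at 6d in Stra8 IP RNA, and at 12.54 and 12.46 and then 11.97 and 11.99 in Amh IP RNA. In the Ngn3 line it was lower in IP than total RNA by -0.61 ± 0.05, under 2-fold. H2az2, the second H2A.Z gene, was higher in every Stra8 IP array (11.50 to 11.96) than in any Amh IP array (10.77 to 11.46), though by 0.52 ± 0.05. H2aj differed between those fractions by 0.22 ± 0.03. H3f3a, read here from a single dim probe set that is listed with it alone, encodes H3.3 and differed by -0.14 ± 0.04. That probe set had a mean of 7.23. Other probe sets, listed with H3f3a and Gm12657, had means of 11.74 to 12.00 and entered no comparison. The value of -0.14 therefore speaks for the dim probe set only.

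Among the 27 replicative genes, 7 were called higher in Stra8 than Amh IP RNA and 3 lower. H1f1, a replicative linker gene, led: it lay between 12.60 and 13.46 in Stra8 IP (median 13.11) and between 9.88 and 11.96 in Amh IP RNA (median 10.69), with no overlap (2.25 ± 0.07, 4.75-fold, adjusted p = 9.66e-34). H2ac4, a replicative H2A gene, lay between 8.82 and 10.77 against 6.50 and 9.40, overlapping (2.12 ± 0.13, adjusted p = 2.5e-20). The H2B gene H2bc3 did not overlap (11.41 to 12.25 against 9.35 to 11.34, 1.55 ± 0.06). The H4 genes H4c3, H4c6 and H4c4 were higher by 1.43, 1.30 and 1.10, and the H2B gene H2bc14 by 1.18. The other 17 replicative genes differed by -0.44 to 0.82. Of all 44 genes, 7 had every Stra8 IP array above every Amh IP array (H2ac1, H1f1, H2aw, H2bc14, H2bc3, H1f10 and H2az2), 1 had every array below (H2bc4), and 36 overlapped. No share of all genes stands beside these overlap counts, so they do not set the histone genes apart. At an unadjusted limma p under 0.05 this comparison had 36 of 44 (81.8%, against 68.2% of all genes). In the same comparison 10 of 11 mitosis genes and 18 of 22 DNA replication genes were higher in Stra8 IP RNA. Against total RNA, H2ac4 was higher in Stra8 IP by 1.11 ± 0.12 (2.16-fold). This value was 0.999 with same-numbered IP and total arrays of a time taken as pairs, where total arrays without an IP partner drop out. It was 0.99 without 3 arrays of narrow signal range. Both are short of 2-fold. In the Amh line H1f1 (-1.25 ± 0.07), H2ac4 (-1.27 ± 0.14) and H2bc3 (-1.07 ± 0.06, or -0.93 and under 2-fold with arrays centred on their medians) were lower in IP than total RNA.

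The 7 higher replicative genes differed less between the lines at time 0 than at 8d. They had been called on the mean over all labelled times, 8d included, so this contrast is partly set by that choice. The differences of Stra8 and Amh IP means ran from -0.06 (H2ac4) to 0.73 (H1f1) at time 0 and from 1.57 (H2bc14) to 2.68 (H4c3) at 8d. The 3 lower genes stood at -3.06 (H2bc4), -1.39 (H1f2) and -0.55 (H3c15) at time 0 and at -3.08, -1.62 and -1.45 at 8d. At time 0, H4c4 was at 13.65 and 13.63 in Stra8 IP and 13.38 and 13.37 in Amh IP RNA, and H2ac4 at 9.42 and 9.10 against 9.40 and 9.23, with overlap for H2ac4. At 8d H4c4 was at 13.73 and 13.71 against 11.84 and 11.88, and H2ac4 at 9.21 and 9.66 against 6.94 and 7.54. For H4c4 the change to 8d was 0.08 in Stra8 and -1.51 in Amh IP RNA.

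**Figure D3:**
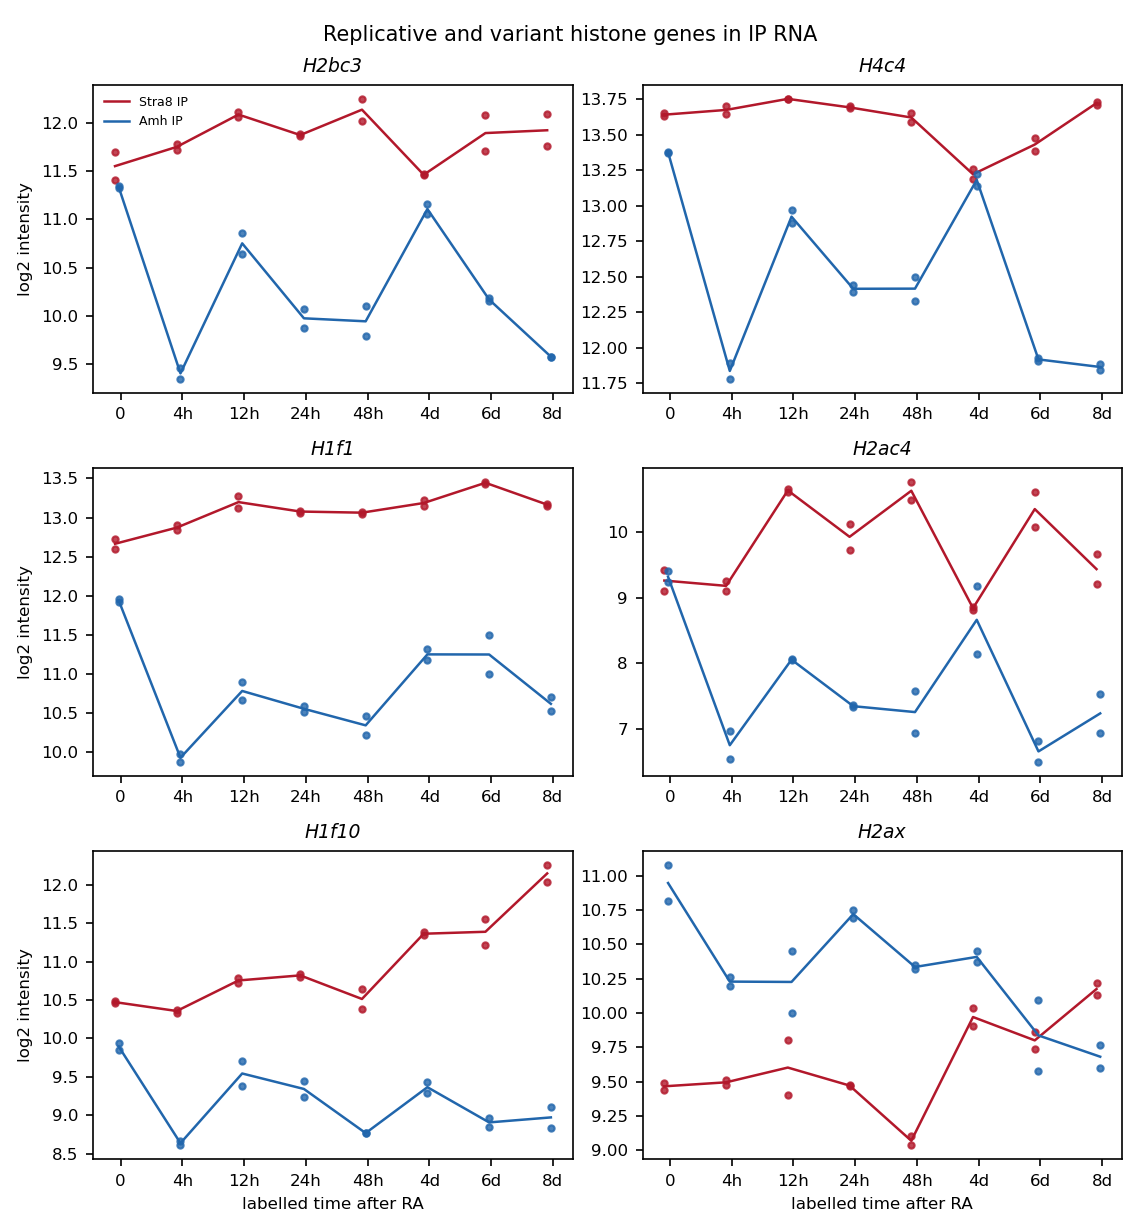
Log2 intensity by labelled time in Stra8 IP and Amh IP RNA for 4 replicative genes (H2bc3, H4c4, H1f1, H2ac4) and 2 variants (H1f10, H2ax), with 1 point per array and lines through group means. The Amh arrays labelled 4h and 4d sit low and high against their neighbours: H4c4 was at 11.89 and 11.78 at the label 4h and at 13.14 and 13.23 at the label 4d.

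In Sertoli cell IP RNA many replicative histone genes fell after time 0. Over the Amh IP course 14 of 44 histone genes were called lower (31.8%, against 3.96% of all genes) and 2 higher (4.55%, against 3.67% of all genes), and the median of the largest changes was -0.53, against 0.20 for all genes. The 2 higher were H2ac1 and H2bc1. The 14 lower were 12 of the 27 replicative genes (3 of 4 H1, 2 of 4 H2A, 4 of 9 H2B, 0 of 3 H3 and 3 of 7 H4) and the variants H1f10 and H2ax. Without the arrays labelled 4h and 4d, 11 were lower and 2 higher: H1f2 (-0.92), H2bc14 (-0.95) and H2bc8 (-0.92) then missed the call. With arrays centred on their medians, 9 were lower and 2 higher. The 3 H3 genes were read from dim probe sets (means of 5.40 to 7.20), so 0 calls there do not show that H3 genes kept their level. Brighter probe sets shared by several H3 genes entered no test, and their levels are given at the end.

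The members with the largest falls show the shape. H2ac4 was at 9.40 and 9.23 at time 0, 8.05 and 8.07 at 12h, 7.34 and 7.36 at 24h, 6.94 and 7.58 at 48h, 6.50 and 6.82 at 6d and 6.94 and 7.54 at 8d. It was 6.97 and 6.54 in the arrays labelled 4h and 9.19 and 8.14 in those labelled 4d. Every time other than the label 4d was called (12h not without any 1 of its 4 arrays), with -2.66 ± 0.37 at 6d the largest (6.31-fold, adjusted p = 2.35e-07). H4c4, of the core histone H4, went from 13.38 and 13.37 to 12.88 and 12.97 at 12h, 11.93 and 11.91 at 6d and 11.84 and 11.88 at 8d (-1.51 ± 0.09 at 8d, adjusted p = 3.22e-18). H2bc3 went from 11.33 and 11.34 to 10.07 and 9.88 at 24h, then 9.58 in both arrays of 8d (-1.75 ± 0.16 at 8d, adjusted p = 1.21e-12). H1f1 went from 11.92 and 11.96 to 10.89 and 10.67 at 12h and 10.53 and 10.71 at 8d. None of these later arrays overlapped time 0. H1f5, another replicative linker gene, went from 11.30 and 11.21 to 10.13 and 10.08 at 24h and 9.81 and 9.59 at 6d (-1.56 ± 0.26, adjusted p = 7.41e-06), with 11.53 and 11.43 at the label 4d, above time 0.

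Time by time, the Amh IP arrays labelled 4h had 10 genes called lower (22.7%, against 1.32% of all genes) and 1 higher (0.622% of all genes). At 12h 2 were lower (0.682% of all genes), H2ac4 and H1f1. At 24h 6 were lower (13.6%, against 0.451% of all genes) and at 48h again 6 (1% of all genes). At 6d 6 were lower (2.14% of all genes) and 2 higher (1.26% of all genes), and at 8d 9 were lower (20.5%, against 2.69% of all genes) and 2 higher (2.93% of all genes). In the arrays labelled 4d limma called 0 (0.943% of all genes in either direction), with 12 of 44 at an unadjusted p under 0.05 (27.3%, against 24.3% of all genes). H4c6 was called at the label 4h, 24h, 48h, 6d and 8d (largest -1.40 ± 0.20). H2ac15 (-1.04 ± 0.09) and H4c14 (-1.01 ± 0.13) were called at 8d, and H2bc9 (-1.00 ± 0.14) at 24h. H2bc8 (-1.14 ± 0.13), H2bc14 (-1.01 ± 0.18) and H1f2 (-1.01 ± 0.27) were called at the label 4h only. H2ac15, H4c14, H2bc9, H2bc14 and H1f2 fell just short of 2-fold when arrays were centred on their medians.

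Genes of cell division moved beside them. The mean of 11 mitosis genes in Amh IP RNA was 10.83 at time 0, 8.93 at the label 4h, 10.03 at 12h, 9.58 at 24h, 8.82 at 48h, 10.48 at the label 4d, 9.59 at 6d and 9.52 at 8d, and 10 of the 11 were called lower over the course. The mean of 22 DNA replication genes was 9.68, 9.19, 9.06, 9.07, 9.08, 9.66, 9.11 and 9.29 at the same times, with 5 called lower. The Sertoli cell markers stayed between 12.26 and 12.48. The part of dividing cells in the fall of the histone genes was not tested.

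**Figure D4:**
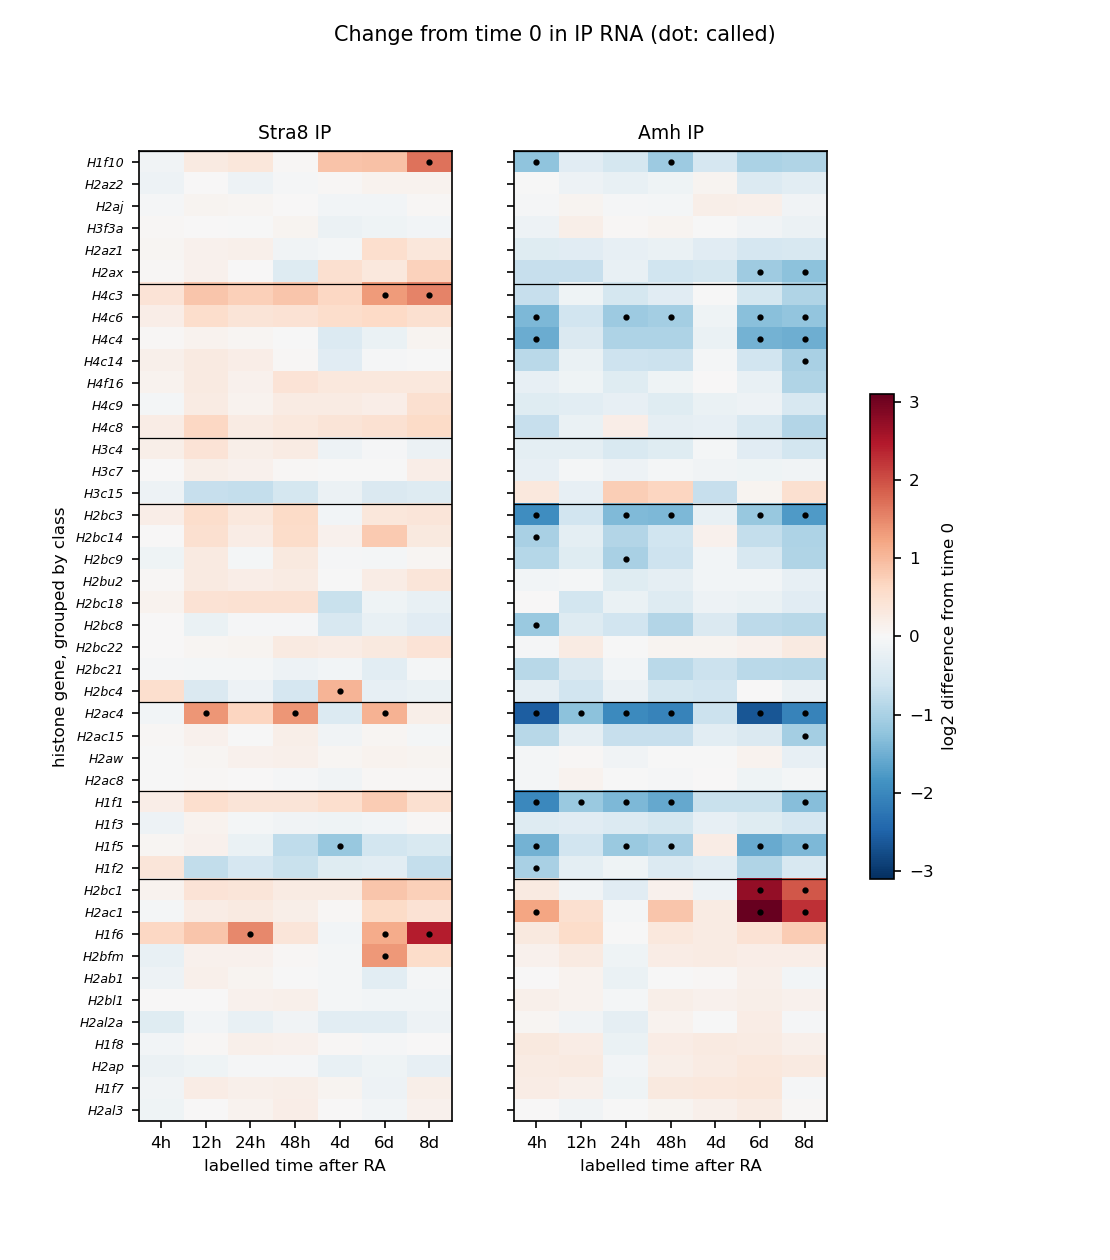
Log2 difference from time 0 in Stra8 IP (left) and Amh IP RNA (right) for the 44 histone genes, grouped by class, with a dot where the gene was called at that time. Called decreases lie mainly in the replicative classes of the Amh panel, with none at the label 4d, while the germ-line pair H2ac1 and H2bc1 is red at 6d and 8d (3.09 and 2.71 at 6d).

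In germ cell IP RNA few replicative genes were called over time. Over the Stra8 IP course 6 of 44 genes were called higher (13.6%, against 6.8% of all genes) and 1 lower (2.27%, against 4.01% of all genes), and the median was 0.22 against -0.08 for all genes. The 6 were H1f6, H1f10, H4c3, H2ac4, H2bfm and H2bc4, and the lower was H1f5. At 4h limma called 0 (0.241% of all genes in either direction), with 2 at an unadjusted p under 0.05 (4.55%, against 12.1% of all genes). At 12h the 1 called was H2ac4 (0.14% of all genes were higher), at 24h H1f6 (0.211%), at 48h H2ac4 (0.341%), and at 4d H2bc4 (0.848% of all genes higher) and, lower, H1f5 (1.1% of all genes lower). At 6d 4 were higher (9.09%, against 3.71% of all genes) and at 8d 3 (6.82%, against 4.38% of all genes). These counts rest on few arrays. Without replicate 1 of time 0 they were 5 at 12h, 3 at 24h, 5 at 48h, 1 at 4d and 6 at 8d, counting both directions. Without replicate 2 of time 0 they were 0 at 12h and 48h, and without replicate 1 of 6d the count there was 1.

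H2ac4 arrays of Stra8 IP were at 9.42 and 9.10 at time 0, 10.66 and 10.61 at 12h, 10.49 and 10.77 at 48h, 8.87 and 8.82 at 4d and 10.62 and 10.08 at 6d. The changes were 1.37 ± 0.37 at 12h (adjusted p = 0.0197), 1.37 ± 0.37 at 48h (adjusted p = 0.0098) and 1.09 ± 0.37 at 6d (adjusted p = 0.0196), and all 3 calls were lost without replicate 2 of time 0, and each without at least 1 array of its own time. H4c3 went from 10.40 and 10.05 to 12.12 and 10.96 at 6d (1.31 ± 0.23) and 11.64 and 11.88 at 8d (1.53 ± 0.23, 2.89-fold, adjusted p = 4.36e-07). Without the first array of 6d the change there was 0.73. H1f5 was at 10.25 and 10.48 at time 0 and 9.54 and 8.83 at 4d (-1.18 ± 0.26, adjusted p = 0.000506), and -0.82 without the lower array of 4d.

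The difference between the lines in the change from time 0 was itself tested, over all times together. It was called higher in Stra8 IP RNA for 20 of 44 genes (45.5%, against 10.9% of all genes) and lower for 3 (6.82%, against 7.77% of all genes), with a median of 0.98 against -0.27 for all genes. Leaving out the Amh arrays with the labels 4h and 4d gave 15 and 3. By class, 3 of 4 H1, 1 of 4 H2A, 5 of 9 H2B and 6 of 7 H4 genes were higher. Of the H3 genes, read from dim probe sets, 0 of 3 were higher, and of the variants 3 of 6. The largest difference was that of H2ac4 at 6d (3.75 ± 0.53, adjusted p = 2.37e-08), from a change of 1.09 in Stra8 and -2.66 in Amh IP RNA. H4c3 at 8d (2.46 ± 0.33), H1f1 at the label 4h (2.22 ± 0.27; 1.99 once the labels 4h and 4d were left out), H2bc3 at the label 4h (2.13 ± 0.23; 2.13 at 8d once those 2 labels were left out) and H4c6 at 6d (1.91 ± 0.28) followed. H4c4 differed by 1.60 ± 0.13 at 8d (adjusted p = 1.26e-17), H2bc14 by 1.54, H4c8 by 1.48, H4f16 by 1.28, H2bc18 by 1.02 and H4c14 by 1.00 (at the label 4h). In the replication list 20 of 22 genes and in the mitosis list 11 of 11 were higher in the same test.

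Not every call in that test is firm. H1f5 (1.51 ± 0.37), H1f2 (1.38 ± 0.37), H2bc8 (1.15 ± 0.19), H4c14 (1.00) and H2bc4 (1.65 ± 0.44) took their largest difference at the label 4h or 4d, and without those Amh arrays they were at 0.98, 0.61, 0.87, 0.99 and -0.29, all short of the call. H3c15, a replicative H3.2 gene, was called lower by -1.51 ± 0.42 at 24h and stood at 1.17 without replicate 2 of Stra8 IP time 0. The 2 arrays of that group were apart for the gene, at 5.78 and 7.06.

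In total RNA few replicative genes were called, while 3 germ-line genes rose in both lines. Over the Stra8 total course 5 of 44 were called higher (11.4%, against 4.9% of all genes) and 1 lower (2.27%, against 2% of all genes); with arrays centred on their medians the counts were 4 and 2. The higher genes were H1f6, H2bc1, H2ac1, H1f10 and H1f1 (1.02 ± 0.16 at 6d), and the lower was H1f5 (-1.13 ± 0.23 at 4d). Without single arrays the H1f1 value ranged down to 0.86 and the H1f5 value to -0.92. Over the Amh total course 4 were higher (9.09%, against 4.46% of all genes) and 3 lower (6.82%, against 3.2% of all genes), or 5 and 2 after quantile normalization, and 7 and 4 without replicate 2 of 6d. H1f1 rose by 1.35 ± 0.19 at 6d (11.88 and 11.78 at time 0, 13.33 and 13.05 at 6d), while IP minus total in that line went from 0.11 at time 0 to -1.94 at 6d. The lower were H1f5 (-1.37 ± 0.26 at 6d), H3c15 (-1.23 ± 0.29 at 12h) and H2bc8 (-1.07 ± 0.13 at 8d). The median of the largest changes was 0.02 in Stra8 and 0.18 in Amh total RNA, against 0.17 for all genes in each.

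A small group of replicative genes ran the other way, low in germ cell IP RNA. H2bc4 (an H2B gene), H1f2 (linker histone H1.2) and H2bc21 (an H2B gene) are known to make polyadenylated transcripts in cells that have left the cycle. H2bc4 lay between 7.73 and 9.78 in the Stra8 IP arrays (median 8.16), between 10.02 and 11.56 in Stra8 total RNA (median 10.73) and between 10.76 and 12.07 in Amh IP RNA (median 11.10). Stra8 IP arrays overlapped neither of the others. It was lower than in total RNA by -2.46 ± 0.10 (5.50-fold, adjusted p = 4.54e-27) and than in Amh IP RNA by -2.77 ± 0.11 (6.83-fold, adjusted p = 1.38e-28). In the Ngn3 line its IP arrays were at 8.16, 8.45, 8.35 and 8.00 and its total arrays at 10.76, 10.90, 11.05 and 11.10 (-2.72 ± 0.22, adjusted p = 2.24e-15).

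H1f2 lay between 7.84 and 9.38 in Stra8 IP (median 8.24), 9.11 and 10.27 in Stra8 total RNA, and 8.90 and 10.15 in Amh IP RNA, with some overlap of each pair. It was lower than in total RNA by -1.28 ± 0.09 in the Stra8 line (adjusted p = 1.73e-18) and -1.48 ± 0.19 in the Ngn3 line (adjusted p = 1.57e-09), and lower than in Amh IP RNA by -1.31 ± 0.09. H3c15 was lower than in Amh IP RNA by -1.12 ± 0.10 and, in the Ngn3 line, than in total RNA by -1.18 ± 0.21. Its values speak only for a dim probe set with a mean of 6.70. Probe sets listed with H3c15 and other H3 genes had means of 13.07 to 13.51 and entered no comparison. In the Ngn3 line H1f5 was also lower in IP RNA (9.53 to 9.72 against 11.03 to 11.44; -1.67 ± 0.18, adjusted p = 3.69e-11), while in the Stra8 line it was not called. That difference between the lines was not tested. H2bc21 was lower in the Ngn3 line by -1.00 ± 0.14, and missed 2-fold with median centring (-0.96) or quantile normalization (-0.98) and without any 1 of 4 of its 8 arrays.

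**Figure D5:**
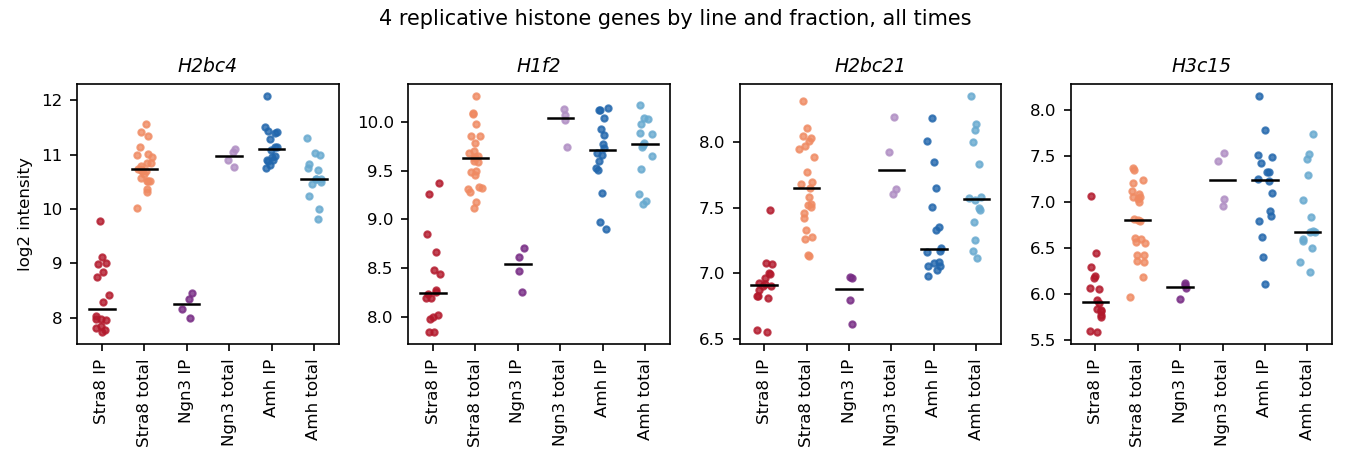
Log2 intensity of H2bc4, H1f2, H2bc21 and H3c15 on every array of each line and fraction, all labelled times together, with a bar at the median. The medians of the germ cell IP arrays (Stra8 and Ngn3) are the lowest in each panel; the H2bc4 medians were 8.16 and 8.25, against 10.55 to 11.10 in the other 4 sets.

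Sertoli cell RNA was read beside H2bc4 and its companions in Stra8 IP arrays. The 2 arrays of time 0 had Sertoli marker means of 9.50 and 10.10 and H2bc4 at 7.82 and 8.98, H1f2 at 8.23 and 9.26, and H2bc21 at 6.55 and 7.48. The arrays of 24h, at 9.24 and 10.20, had H2bc4 at 7.73 and 8.74, and those of 4d, at 10.80 and 9.84, at 9.78 and 9.11. H1f2 was at 8.013 and 8.442 at 24h and 8.479 and 8.275 at 4d. H2bc21 was at 6.830 and 7.080 at 24h, but at 6.904 and 6.962 at 4d, the other way from the markers. H3c15 was at 5.777 and 7.061 at time 0 and 6.295 and 6.172 at 4d. At 24h it was at 5.758 and 5.605, again the other way. H2bc4 was called higher at 4d by 1.05 ± 0.31 (adjusted p = 0.00972), and this call was lost without replicate 1 of time 0 (0.46) or replicate 1 of 4d (0.71). Without replicate 1 of time 0 the largest change of its course was -1.10. All 12 Sertoli markers were lower in IP than total RNA in both germ cell lines, and 6 of the 12 were called lower over the Stra8 IP course. The part of Sertoli cell RNA in the H2bc4 values was not tested.

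In the Ngn3 line RA for 4h left the histone genes without a call. Limma called 0 of 44 between 4h and time 0 in Ngn3 IP RNA (0.311% of all genes in either direction), with 5 at an unadjusted p under 0.05 (11.4%, against 9.28% of all genes) and a largest difference of 0.73.

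Genes that process histone mRNA or carry histone proteins were read beside them. Of 13 processing genes, 5 differed between the lines' IP courses and all were higher in Stra8 RNA (10.9% of all genes were higher and 7.77% lower). Among them were Slbp, whose product binds the histone stem-loop (1.17 ± 0.19 at 6d), Casp8ap2, a component of histone locus bodies (1.34 ± 0.29 at 6d), Eri1, an exonuclease that trims histone mRNA ends (1.15 ± 0.18 at 8d), and Cpsf2 of the cleavage complex (1.08 ± 0.22 at 6d). Within the Stra8 IP course 3 rose (6.8% of all genes were higher), Zfp473 (1.12 ± 0.15), a partner of the U7 complex, Casp8ap2 (1.08 ± 0.20) and Eri1 (1.00 ± 0.13), all at 8d, while the largest changes of the 13 in Amh IP RNA ran from -0.54 to 0.61. Upf1, a helicase needed for histone mRNA decay, was higher in IP than total RNA in the Stra8 (1.04 ± 0.04) and Ngn3 lines.

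Of 18 chaperone genes, 5 were higher in Stra8 than Amh IP RNA (7.54% of all genes) and 1 lower (9.26% of all genes), or 6 and 2 with the Amh labels 4h and 4d left out. Asf1b, an H3-H4 chaperone of dividing cells, was higher by 2.55 ± 0.06, Hat1, which acetylates new H4, by 1.70 ± 0.03, and Nasp, a chaperone of H3-H4 and linker histones, by 1.63 ± 0.06. Daxx, a chaperone of H3.3, was lower by -1.13 ± 0.04. Over the Amh IP course Asf1b (-1.14 ± 0.18 at 12h) and Atrx, the partner of Daxx (-1.34 ± 0.24 at the label 4h), were lower (3.96% of all genes). Without the arrays labelled 4h and 4d Atrx was at -0.98 and missed the 2-fold minimum. Anp32e, which removes H2A.Z from chromatin, was lower in Stra8 IP RNA at 8d by -1.41 ± 0.12 (adjusted p = 1.8e-13).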

How the data were processed

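RNA from 77 samples was hybridised to 1-colour arrays after amplification and biotin labelling, per the labels' protocols. The deposited values are intensities on a linear scale that the authors made with RMA, per the submitters' processing notes. The sources used here give no software or settings for it. They were log2-transformed, with no further normalization. The 19938 genes with a probe set listed for them alone entered the fit, each by the one with the highest mean over all arrays. The number of arrays limits the precision.

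limma 3.58.1 in R 4.3.3 fitted all 35 groups in one model with lmFit and eBayes. Fold differences between fractions or lines average over the shared times. Time courses were tested with the moderated F over all times against time 0, and the value printed is the largest difference and its SE. Called means a Benjamini-Hochberg adjusted p under 0.05 over all genes and a difference of at least 2-fold. In IP RNA, a p given for a single time against time 0 belongs to that time's contrast, unless the course is named. For changes in total RNA, and for the difference between lines in the change, single times were not tested. The p given there is that of the F over all times. The procedure was tested on simulated data. The labels do not say whether replicates were separate animals, so p-values measure only the spread between samples, which may be technical.

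The histone genes and the other gene lists were chosen with earlier results of these data known. H2aw and H2bfm were put into their classes after the annotation was read. All germ-line and variant members are named, with up to 6 called members per direction and comparison, and up to 4 called genes of the other lists. Same-numbered IP and total arrays of the Amh line deviated together (correlations of 0.114 to 0.585 in 7 of 7 pairs, all over 0.1), so their numbers pair the samples. Alternatives were median centring, quantile normalization, no fold minimum, leaving out the dimmest 30% of genes, averaging probe sets per gene, a replicate block, each array left out in turn, and the fit without Amh arrays of the labels 4h and 4d. Probe sets shared by several histone genes were left out of all tests.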

Additional observations from a re-analysis of the deposited data

Results flagged for a closer look

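In the 3 groups of 4 arrays, 6 of 132 sets of 4 values held 1 array far from the rest (gap over range above 0.829); chance alone gives about 1 in 20. In Stra8 total RNA of time 0, H2aj was lowest on replicate 4, at 8.187. At 24h H2ab1 was highest on replicate 3 (8.148) and H2ac8 on replicate 1 (4.984). At 48h H2bc14 (11.791) and H2bc9 (10.857) were lowest on replicate 3, and H2az2 was highest on replicate 2 (11.594).

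The change from time 0 differed between Stra8 IP and Amh IP RNA for 23 histone genes by limma's test of the difference itself, given here as Stra8 change minus Amh change on the log2 scale. At the label 4h the differences were 2.216 for H1f1, 2.126 for H2bc3, 1.513 for H1f5, 1.377 for H1f2, 1.147 for H2bc8 and 1.002 for H4c14. At 12h it was 1.019 for H2bc18, at 24h -1.506 for H3c15 and at the label 4d 1.652 for H2bc4. At 6d the differences were 3.747 for H2ac4, 1.906 for H4c6, 1.536 for H2bc14, 1.160 for H2bfm, 1.041 for H2az1, -1.851 for H2bc1 and -2.504 for H2ac1. At 8d they were 2.597 for H1f10, 2.456 for H4c3, 1.973 for H2ax, 1.637 for H1f6, 1.596 for H4c4, 1.483 for H4c8 and 1.278 for H4f16. The values of H1f2, H1f5, H2bc4 and H3c15 changed sign when single arrays, or the Amh arrays of the labels 4h and 4d, were left out. With those 2 labels left out, H2bc8 (0.87) and H4c14 (0.99) kept their direction and missed the 2-fold minimum.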

How the results depend on the processing

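With no fold minimum, the histone genes called were 30 for Stra8 IP against total RNA, 34 for Amh, 18 for Ngn3, 36 for Stra8 against Amh IP RNA and 6 for the totals. The courses then had 25 (Stra8 IP), 31 (Amh IP), 28 (Stra8 total) and 28 (Amh total), and their difference 36. Single times had 1, 4, 2, 5, 11, 12 and 14 in Stra8 IP and 22, 12, 12, 16, 6, 21 and 24 in Amh IP RNA, in time order. Shares of all genes called this way are not given, and many genes pass without a fold minimum. At an unadjusted limma p under 0.05 the fraction and line contrasts had 73.2%, 75.6%, 58.6%, 68.2% and 34.2% of all genes, in the order above. The courses and their difference had 61.7%, 59.2%, 70.2%, 59.6% and 69.9%. Single times had 12.1% to 41.1% in Stra8 IP and 10.6% to 35.9% in Amh IP RNA. With 1 array left out, the counts ranged from 7 to 11 for the Amh total course. In Stra8 IP RNA they ranged from 0 to 5 at 12h and 48h, from 1 to 3 at 24h, 1 to 2 at 4d, 1 to 6 at 6d and 3 to 6 at 8d, and in Amh IP RNA every array left out gave 1 at 12h. Over the other comparisons with calls, the counts stayed within 1.5 times the reported ones.

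Of 2348 values of called genes with 1 array left out, 2285 kept direction and call, 58 lost the call and 5 reversed. The H2bc4 Stra8 IP course ranged from -1.10 to 1.63 (reversed without replicate 1 of time 0). In the difference between courses H1f2 ranged from -0.96 to 1.89, H1f5 from -1.76 to 1.63 and H3c15 from -2.15 to 1.17, and H2bc4 was -0.29 without the Amh arrays of the labels 4h and 4d. In these cases the largest difference is taken at another time. Median centring kept 128 of 143 calls, quantile normalization 134, the mean of probe sets 143, and leaving out dim genes 132 of 132. Median centring moved the median of all genes from 0.116 to 0.255 for Amh IP against total RNA and from -0.0757 to 0.104 for the Stra8 IP course (quantile 0.116). Quantile normalization moved it from -0.266 to -0.114 for the difference between courses. Without 3 Stra8 total arrays of narrow signal range, an alternative chosen after seeing the data, 9 of 10 calls it touches were kept.

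In the replicate block, same-numbered IP and total arrays of a line and time were pairs for IP against total RNA. In the other comparisons the block was the replicate number. With the block, the count of called genes was 4 (Stra8), 5 (Amh) and 5 (Ngn3) for IP against total RNA, 14 for Stra8 against Amh IP RNA, 0 for the totals, 7, 16, 6 and 7 for the courses and 23 for their difference, all as without it. The block ended 1 of 143 gene calls, that of H2ac4 in Stra8 IP against total RNA (0.999), and gained 1 in the same comparison, H4c3 (1.01, against 0.94 without it). Only 4 of 8 Stra8 IP and total pairs had a correlation over 0.1. The main fit did not use those numbers as pairs, while the block fit did. Signals near the array minimum limit what dim genes such as H2bl1 and H2al3 can show.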

Other observations

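Probe sets that the annotation lists with several histone genes entered no comparison, and their levels are given as values only. The mean of 10 replicative H3 probe sets in Amh IP RNA was 13.57 at time 0, 12.95 under the label 4h, 12.74 at 24h, 13.58 under the label 4d and 12.63 at 8d, and in Stra8 IP RNA it was 13.59 at time 0 and 13.57 at 8d. For 7 replicative H2B probe sets the Amh IP means were 13.08, 12.30, 12.51, 13.01 and 12.29 at those times, and the Stra8 IP means 13.05 and 13.16. For 6 replicative H4 probe sets they were 12.24, 11.51, 11.69, 12.22 and 11.27, against 12.46 and 12.67. Among these 6, the probe set listed with H4c17 and H4c11 alone was dim, with a mean of 6.86 over all arrays. The others had means of 13.34 to 13.41, so the H4 means given lie below the level of the bright probe sets. For 2 replicative H2A probe sets the Amh IP means were 13.09, 12.81, 12.69, 13.12 and 12.73, and the Stra8 IP means 13.18 and 13.23. The 2 shared probe sets of H3f3b, an H3.3 gene, had Amh IP means of 12.95 at time 0 and 12.75 at 8d and Stra8 IP means of 12.39 and 12.70. The genes behind a shared probe set cannot be told apart.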
